A study of Bos taurus with 4 samples.

Results

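Heat shock proteins and their DNAJ co-chaperones are the core of the cell's protein folding machinery, and their transcripts were compared between bovine blastocysts developed from vitrified and from slow-frozen morulae. The group was chosen by gene symbol in the annotation table of the array: symbols of the HSPA, HSPB and HSP90A series and of the DNAJ series, with HSPD1, HSPE1 and HSPH1, and without HSPA5. It held 65 of 15229 genes with a symbol, on 98 of 43794 probes. A signal above the negative controls of the array in at least 3 of the 4 pools of a group was found for 54 genes on 81 probes, and these were tested among 30034 probes of 11737 genes. For 53 of the 54 genes the brightest probe reached that signal in both groups. Of the 81 probes, 74 did so in both groups, 5 in vitrified and 2 in slow-frozen pools alone.

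Heat shock proteins bind unfolded polypeptides. HSP70 proteins hold them in an ATP-driven cycle that DNAJ proteins start and nucleotide exchange factors end, HSP90 proteins finish the folding of signalling proteins, small heat shock proteins prevent aggregation, and the chaperonin of HSPD1 and HSPE1 folds proteins inside mitochondria. Some members, such as HSPA1A, are switched on by heat shock factors under stress, while others, such as HSPA8, are made at all times, and in the mouse HSPA1A transcripts are among the earliest that the embryo makes itself.

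The embryos were Bos taurus, produced in vitro from abattoir oocytes and the semen of a dairy bull. Compact morulae had either been vitrified on a Cryotop with ethylene glycol and dimethyl sulfoxide, or been slow-frozen in 1.5 M glycerol at 0.5 °C per min to -35 °C. After storage in liquid nitrogen and warming, both groups were cultured for 24 to 48 h. Only expanded blastocysts were pooled, 7 per pool by the labels, while the methods allow fewer. The labels give 7 days after fertilisation as the time of collection in both groups. In the methods that is the day on which the compact morulae were taken, before cryopreservation and culture. There were 4 vitrified and 4 slow-frozen pools, in each group 2 labelled with Cy5 (replicates 1 and 2) and 2 with Cy3 (replicates 3 and 4). According to the methods the vitrified pools lay on one slide and the slow-frozen pools on another, so slide and treatment cannot be told apart. Since the pooled embryos are those that went on to expand, the treatment cannot be told apart from which embryos survived it. In pools of whole embryos, fewer cells of a type and less RNA per cell cannot be told apart either. Embryos from morulae that were never frozen were not used here.

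The median raw intensity of a pool was between 109 and 384, with 63.3% to 74.1% of probes above the negative controls. All 7 trophectoderm and all 3 inner cell mass markers were measured, and none of them reached an unadjusted p of 0.05 (limma). The mean log2 level of the trophectoderm markers was 12.40 to 12.81 in vitrified and 12.55 to 13.02 in slow-frozen pools, and 6 of the 7 were on the lower side in vitrified pools. Of 6 cumulus markers, AMH was above the controls in 0 pools and HAS2 in 1, while CYP19A1 was above them in 8, FSHR and PTX3 in 7 and TNFAIP6 in 6. All 4 that were tested were on the lower side in vitrified pools by their brightest probes, from -0.36 to -0.03. Their smallest unadjusted p was 0.14 (FSHR, limma), and a second probe of CYP19A1 gave 0.10. The mean log2 level of these 4 was 7.36 to 7.75 in vitrified and 7.68 to 7.80 in slow-frozen pools. Of 4 hypoblast markers, PDGFRA (0.83, unadjusted p = 0.062, limma) and GATA4 (0.38) were tested, both on the higher side in vitrified pools. The dimmer probes of PDGFRA gave only 0.18 and 0.08. SOX17 was not tested, being above the controls in 4 pools, and GATA6 had no probe. The mean level of PDGFRA, by its brightest probe, and GATA4 was 10.75 to 11.43 in vitrified and 9.41 to 10.80 in slow-frozen pools. Of 4 blood markers PTPRC, a leukocyte surface protein, was lower in vitrified pools (-0.42 ± 0.19, SE, unadjusted p = 0.046, limma). HBB went the other way (0.37), while HBA and ALAS2 were at -0.20 and -0.23. The mean log2 level of the 4 blood markers overlapped, at 8.02 to 8.56 in vitrified and 8.24 to 8.51 in slow-frozen pools. The part of these levels in the results on the chaperones was not tested.

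No heat shock protein or DNAJ gene differed between vitrified and slow-frozen pools after Benjamini-Hochberg adjustment over all probes (limma, adjusted p from 0.67 to 1.00 over the 81 probes), and the same adjustment called 0.00333% of all probes. The study's own thresholds, a fold of at least 2 with an unadjusted p under 0.05, were met by 0 of 81 member probes and by 0.19% of all probes. Taking each gene by its brightest probe, 28 genes were on the higher and 26 on the lower side in vitrified pools, and the median log2 difference (vitrified minus slow-frozen) was 0.018, beside 0.0096 over all 11737 genes. An unadjusted p under 0.05 was reached by 1 of the 54 genes, DNAJC24 (limma), against 5.95% of all genes. The count depended on single pools: it was 0 when vitrified replicate 1 or 2 was left out, 2 when vitrified replicate 4 or slow-frozen replicate 3 was, 4 when slow-frozen replicate 1 was, and 5, of which 2 were higher, when slow-frozen replicate 4 was. In these fits, in the same order, 1350, 871, 1736, 1708, 1685 and 1784 of all 30034 probes had an unadjusted p under 0.05 (limma). With all pools 1445 probes did.

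Over all 81 member probes, 4 had an unadjusted p under 0.05 (limma), all of them higher in vitrified pools, while 2.45% of all probes were higher and 2.36% lower at that level. Of these 4 probes, 3 belonged to DNAJC15 and 1 to DNAJC24. Without slow-frozen replicate 1, 3 or 4 the count was 7 probes, all higher, 7 probes, of which 6 were higher, and 11 probes, of which 5 were higher and 6 lower. The same omissions gave 1685, 1708 and 1784 of all 30034 probes, beside 1445 with all pools (unadjusted p under 0.05, limma). Complete separation of the groups, with every vitrified pool above every slow-frozen pool, was seen for 4 member probes, against 1.48% of all probes. They were a pair of probes of DNAJC15, 1 of DNAJC2 and 1 of DNAJC17. The DNAJC17 probe passed the signal filter through the vitrified pools alone, the group in which it was higher. The opposite separation was seen for 0 member probes and for 0.982% of all probes.

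The precision of the comparison can be read from the 95% intervals of the 54 differences, whose median SE was 0.18. The interval lay within a 2-fold difference in either direction for 53 of the 54 genes, the exception being DNAJC15, and within 0.5 on the log2 scale for 18. The lowest bound was -0.98 (HSPA1A) and the highest 1.30 (DNAJC15).

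**Figure D1:**
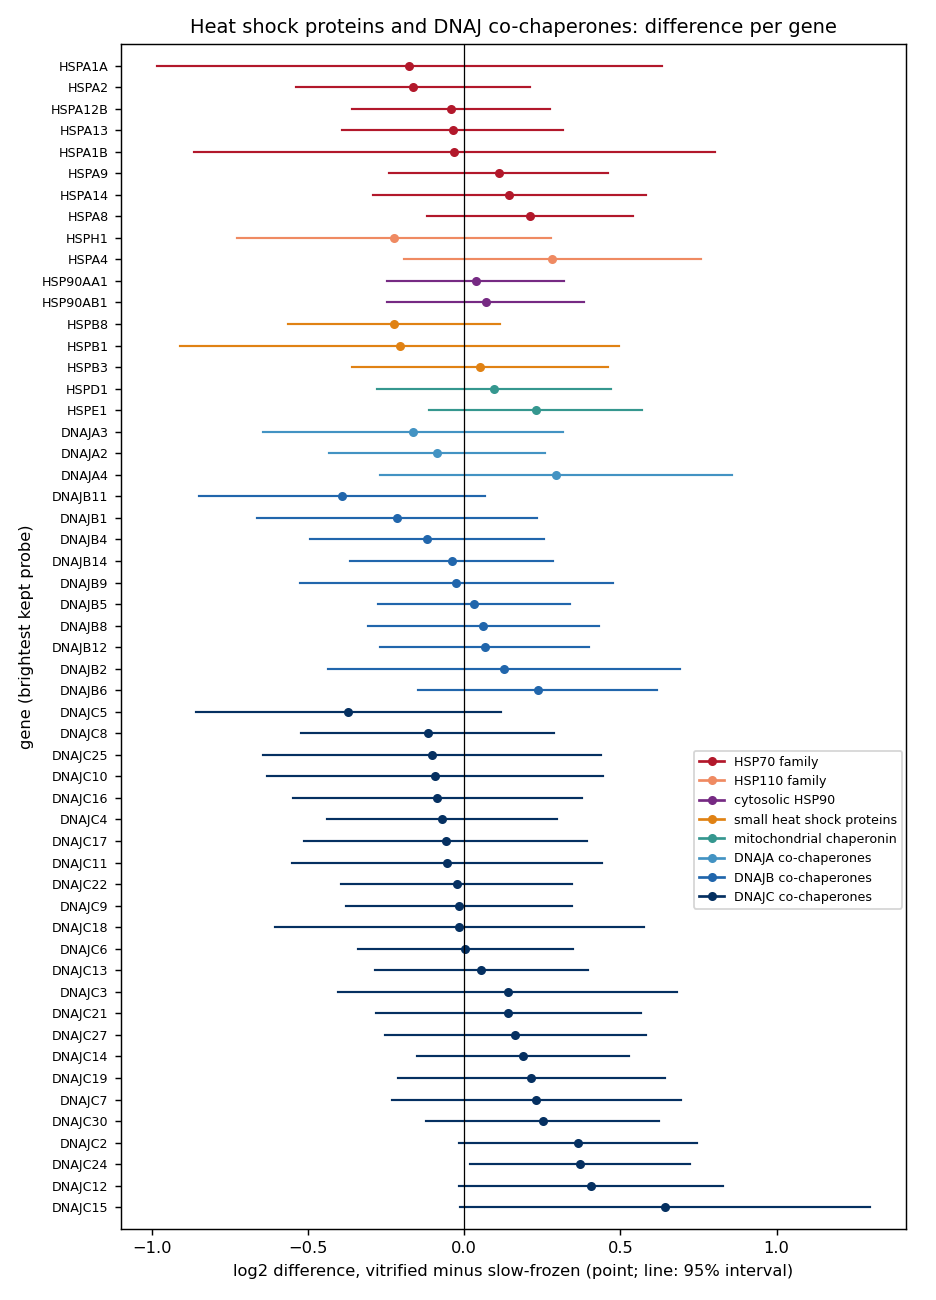
Log2 difference in normalised intensity (vitrified minus slow-frozen, horizontal axis) of the 54 member genes tested, each by its brightest probe and coloured by class; the line is the 95% interval from limma. The interval of DNAJC24 alone leaves out 0, and DNAJC15 has the largest difference, 0.64.

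Among the HSP70 proteins the difference was within ±0.21 for all 8 genes tested. HSPA8, the HSP70 that cells make at all times, read 15.39, 15.63, 15.48 and 15.74 (log2 intensity, vitrified replicates 1 to 4) and 15.27, 15.09, 15.37 and 15.67 (slow-frozen replicates 1 to 4). The groups overlapped, and slow-frozen replicate 2 was the lowest pool. The difference was 0.21 ± 0.15 (SE, n = 4 pools per group, adjusted p = 1.00, limma).

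The stress-inducible HSP70 genes stood out by their spread between pools. HSPA1A read 7.97, 8.48, 7.99 and 9.46 in the vitrified and 8.93, 7.81, 9.53 and 8.33 in the slow-frozen pools. Each group held both high and low pools, slow-frozen replicate 3 being the highest and slow-frozen replicate 2 the lowest of all, so that the groups overlapped over nearly their whole range. The difference was -0.18 ± 0.37 (adjusted p = 1.00, limma).

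HSPA1B read 7.66, 8.39, 8.59 and 9.11 in the vitrified and 9.01, 7.58, 9.43 and 7.86 in the slow-frozen pools. The same pair of slow-frozen pools marked the top and the bottom, 3.62-fold apart, and the group difference was -0.03 ± 0.38 (adjusted p = 1.00, limma). HSPA1A and HSPA1B followed each other over the 8 pools (Pearson's r = 0.88, Spearman's rho = 0.93, as a description of pools that share their libraries). In the cattle reference gene table (assembly ARS-UCD2.0) HSPA1B is only an older name of HSPA1A, and these near-identical genes may share signal, so the probes are not separate evidence. Their direction was not settled: for HSPA1A it turned positive when vitrified replicate 3 (0.13) or slow-frozen replicate 1 (0.04) or 3 (0.07) was left out.

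The other 5 HSP70 genes tested, among them the mitochondrial HSPA9 and the testis form HSPA2, had differences from -0.17 to 0.14 and unadjusted p-values of 0.35 or above (limma). HSPA6, HSPA1L and HSPA12A were not tested, since too few pools were above the negative controls; HSPA6, a strictly stress-induced HSP70 in human cells, was above them in 0 of 8 pools.

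HSPH1 and HSPA4 are HSP110 proteins, which release nucleotide from HSP70. HSPH1, the inducible one, read 11.13, 11.51, 11.06 and 11.96 in the vitrified and 11.24, 11.96, 11.51 and 11.86 in the slow-frozen pools. The groups overlapped (-0.23 ± 0.23, adjusted p = 1.00, limma). For HSPA4 the levels were 10.76, 10.68, 10.26 and 10.64 against 10.34, 9.96, 10.03 and 10.89. The highest pool was slow-frozen replicate 4, the other 3 slow-frozen pools lay below 3 of the 4 vitrified pools, and the difference was 0.28 ± 0.22 (adjusted p = 1.00, limma), or 0.51 without that pool (unadjusted p = 0.014, limma).

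The cytosolic HSP90 proteins fold kinases and steroid receptors. HSP90AA1, the inducible form, read 15.87, 15.87, 15.59 and 15.78 in the vitrified and 15.78, 15.85, 15.62 and 15.71 in the slow-frozen pools. Vitrified replicate 3 and slow-frozen replicate 3 were the low ends, and the difference was 0.04 ± 0.13 (adjusted p = 1.00, limma); with median scaling in place of quantile normalisation it was -0.091, and with the authors' log2 ratios -0.071. This probe came close to the upper limit of the scanner (highest raw intensity 64808), although it was saturated in 0 pools. HSP90AB1, the constitutive form, read 12.85, 13.03, 13.32 and 13.26 against 12.80, 13.12, 13.24 and 13.02. These groups overlapped too (0.07 ± 0.14, adjusted p = 1.00, limma).

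Of the small heat shock proteins, HSPB1 had the second widest range of all members over the 8 pools. It read 12.41, 11.82, 12.62 and 12.39 in the vitrified and 12.73, 12.47, 13.29 and 11.57 in the slow-frozen pools. The slow-frozen group held both the highest pool, replicate 3, and the lowest, replicate 4, and the group difference was -0.21 ± 0.32 (adjusted p = 1.00, limma), or 0.082 on omission of slow-frozen replicate 3. Omitting the lowest pool in its place gave -0.61 (unadjusted p = 0.0095, limma). Its second probe gave -0.28.

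HSPB8, a partner of BAG3 in the clearance of misfolded proteins, had 3 probes at -0.23, -0.26 and -0.28 (limma, unadjusted p from 0.090 to 0.17). The brightest read 7.50, 8.01, 8.45 and 8.37 in the vitrified and 8.07, 8.18, 8.51 and 8.48 in the slow-frozen pools, and the groups overlapped. Although these probes had the same sign of difference, they did not follow each other over the pools: r was 0.78, -0.62 and -0.23 for the 3 pairs. The dye went with that, since the brightest probe was 0.51 lower in Cy5 and the third 0.52 higher (unadjusted p = 0.0065 and 0.0052, limma). HSPB3 differed by 0.05, and HSPB2, HSPB6 and HSPB9 were not tested.

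HSPD1 and HSPE1 encode the barrel and the lid of the mitochondrial chaperonin and are neighbours in the reference gene table. HSPD1 read 14.70, 14.63, 14.27 and 14.49 in the vitrified and 14.47, 14.29, 14.18 and 14.77 in the slow-frozen pools, with overlap (0.10 ± 0.17, adjusted p = 1.00, limma; second probe 0.06). HSPE1 read 13.25, 13.34, 13.49 and 13.38 against 13.48, 13.00, 13.03 and 13.04. Slow-frozen replicates 2, 3 and 4 were below every vitrified pool, and slow-frozen replicate 1 was near the top (0.23 ± 0.15, adjusted p = 1.00, limma). Over the 8 pools the pair did not move together (r = 0.05).

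**Figure D2:**
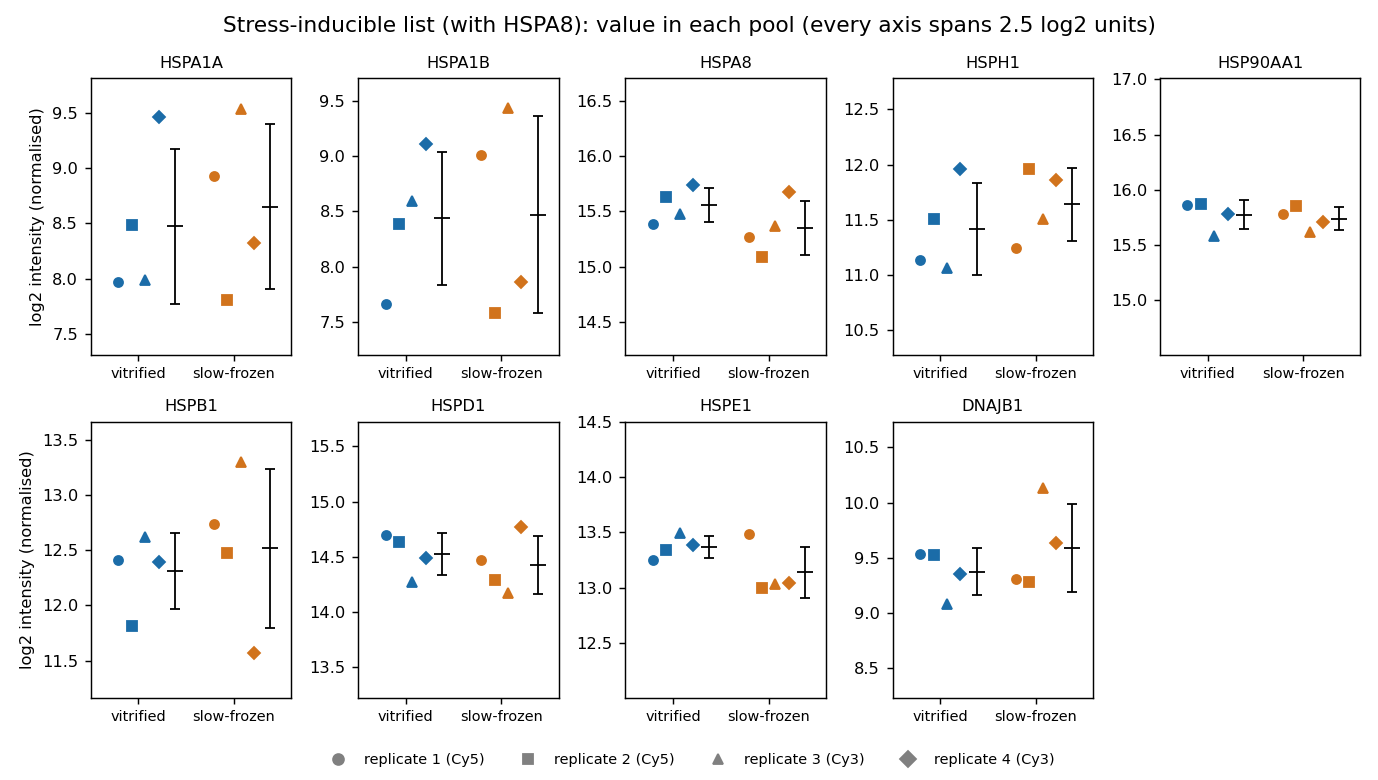
Normalised log2 intensity (vertical axis, the same span in every panel) of the 9 tested members of the stress-inducible list (HSPA8, made at all times, is one of them), in each vitrified (blue) and slow-frozen (orange) pool, with symbols for the replicate and its dye and black bars for mean ± SD. HSPA1A, HSPA1B and HSPB1 range over 1.73 to 1.86 across the 8 pools, with the highest and the lowest pool both slow-frozen. Their SD was 0.70, 0.60 and 0.34 in vitrified and 0.75, 0.89 and 0.72 in slow-frozen pools. HSP90AA1 stays within 15.59 to 15.87, near the upper limit of the scanner.

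The members listed as stress-inducible, with HSPA8 among them although it is made at all times, had no common direction: of the 9 tested, 4 were on the higher and 5 on the lower side in vitrified pools, 0 reached an unadjusted p of 0.05 (limma), and the median difference was -0.03. Leaving HSPA8 aside, 3 were on the higher and 5 on the lower side. Nor was a shared pattern seen over pools by their brightest probes: the median of r over their 36 pairs was 0.08, with 5 pairs above 0.5. The lowest r was -0.82, for HSPB1 with HSPD1. However, r between the 3 probes of DNAJB1 was 0.75, -0.13 and -0.26. With r that low within a gene, a low r between genes cannot show that a shared pattern is absent.

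The spread of the members was described by the residual SD between pools after treatment and dye were taken into account. Its median was 0.29 for the 54 genes, beside 0.25 for all 11737 genes by their brightest probe. Over the 81 member probes it was 0.25, beside 0.24 for all 30034 probes. Of the 54 genes, 10 were above the 90th percentile of all probes (0.42). HSPA1B (0.75), HSPA1A (0.72), HSPB1 (0.61) and DNAJC15 (0.56) were the widest. HSPA1B was wider than 99.4% of all probes. HSP90AA1 was the narrowest at 0.07, on a probe near the upper limit of the scanner (highest raw intensity 64808). Whether that limit or the quantile normalisation narrowed its spread was not tested. Slow-frozen replicate 2 was the lowest of the 8 pools for 14 of the 54 genes, and vitrified replicate 3 the highest for 12; these pools also lay at the ends of the main axis of variation over all probes.

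**Figure D3:**
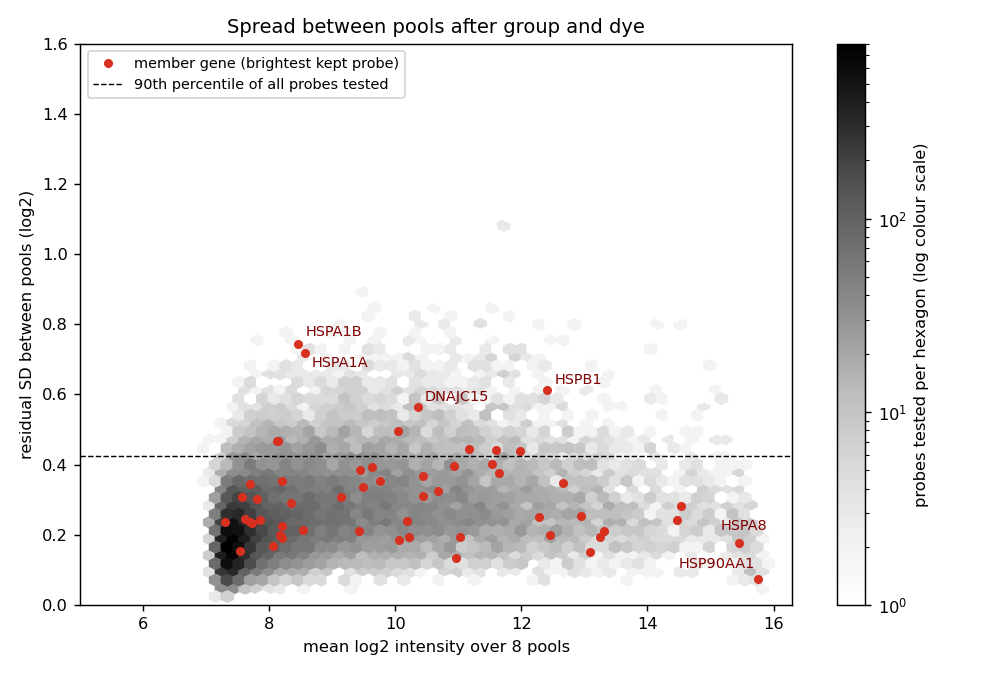
Residual SD between pools (log2, vertical axis) against mean log2 intensity over the 8 pools (horizontal axis), for the 54 member genes (red points) over all 30034 probes tested (grey hexagons, log colour scale). The dashed line is the 90th percentile of all probes, 0.42, and 10 member genes lie above it.

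DNAJ proteins carry the J domain that starts the ATP cycle of HSP70, and deliver its clients. They numbered 41, of which 37 were tested, 19 on the higher and 18 on the lower side in vitrified pools. The leading member was DNAJC15, a J protein of the mitochondrial inner membrane that in mouse and human restrains respiratory complex I. Of the genes on the array it was among the most densely covered, with 5 probes tested.

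The brightest DNAJC15 probe, EMBV3_16111, read 10.96, 10.79, 10.80 and 10.15 in the vitrified and 10.31, 9.44, 10.80 and 9.58 in the slow-frozen pools. Slow-frozen replicate 3 was as high as the vitrified pools and vitrified replicate 4 was low, so the groups overlapped. The difference was 0.64 ± 0.30, or 1.56-fold (unadjusted p = 0.054, adjusted p = 1.00, limma).

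A clearer separation was seen with EMBV3_28110, which read 10.11, 10.69, 10.53 and 10.59 against 9.76, 9.59, 10.06 and 9.95. Every vitrified pool was above every slow-frozen pool, the smallest gap being between vitrified replicate 1 and slow-frozen replicate 3. The difference was 0.64 ± 0.16 (unadjusted p = 0.0019, adjusted p = 0.67, limma). EMBV3_32902 read 9.86, 9.71, 9.49 and 9.39 against 9.06, 8.68, 9.25 and 8.88. Here too the groups did not overlap (0.64 ± 0.17, unadjusted p = 0.0032, adjusted p = 0.71, limma).

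EMBV3_29022 read 9.62, 9.41, 9.66 and 9.04 against 8.77, 8.63, 9.32 and 8.65, and slow-frozen replicate 3 overlapped the vitrified range (0.59 ± 0.20, unadjusted p = 0.014, adjusted p = 0.93, limma). EMBV3_17548 gave the smallest difference, 0.43 ± 0.23 (unadjusted p = 0.091, adjusted p = 1.00, limma). Its levels were 9.09, 8.99, 8.68 and 8.47 against 8.57, 7.90, 8.91 and 8.13, with slow-frozen replicate 2 the lowest pool.

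Averaged over its 5 probes, DNAJC15 differed by 0.59 ± 0.19 (unadjusted p = 0.011, adjusted p = 0.95, limma). The 5 probes were alike over the 8 pools (r from 0.53 to 0.97 over 10 pairs) and were read from the same RNA, so they are repeat measurements of 1 gene and not independent tests. After the group means were taken out, r was 0.74 to 0.98 among the other 4 probes but only 0.04 to 0.14 for EMBV3_28110 with each of them. Under the 18 other settings tried, including the omission of each pool, EMBV3_28110 and EMBV3_32902 kept an unadjusted p under 0.05 in all 18, with differences from 0.51 to 0.77, EMBV3_29022 in 17 and EMBV3_17548 in 3. The brightest probe was under 0.05 in 9 of the 18, with differences from 0.40 without slow-frozen replicate 2 to 0.96 without slow-frozen replicate 3, and the lowest adjusted p of any of the 5 was 0.17 (limma).

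**Figure D4:**
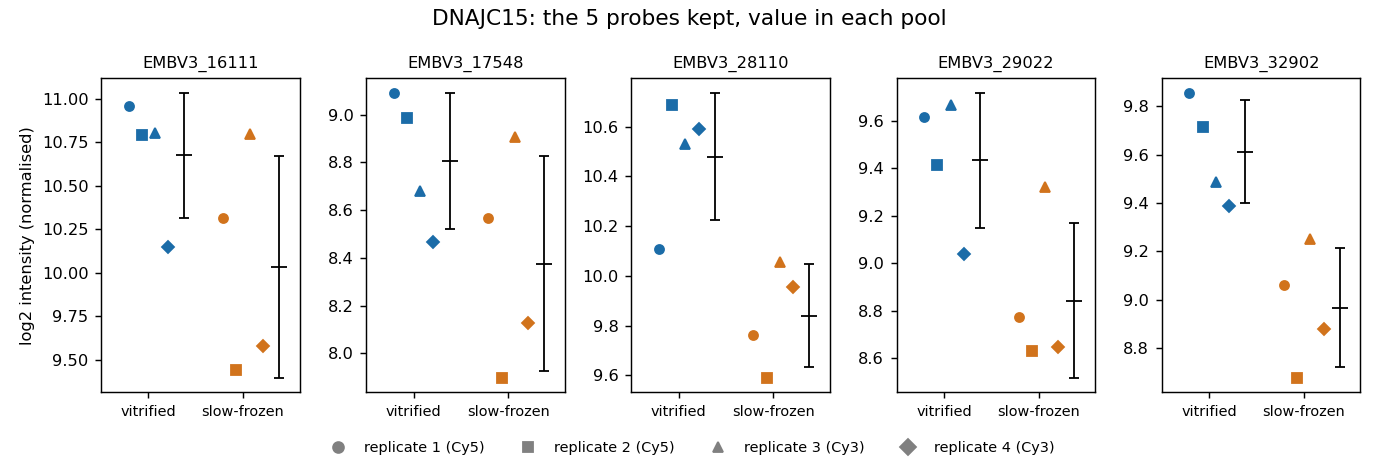
Normalised log2 intensity (vertical axes, a scale for each panel) of the 5 DNAJC15 probes in each vitrified (blue) and slow-frozen (orange) pool, with symbols for the replicate and its dye and black bars for mean ± SD. Every vitrified pool is above every slow-frozen pool for EMBV3_28110 and EMBV3_32902, and the mean is higher in vitrified pools for all 5.

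DNAJC24, needed for the diphthamide modification of elongation factor 2, read 9.58, 9.79, 9.80 and 9.25 in the vitrified and 9.46, 9.15, 9.15 and 9.17 in the slow-frozen pools. Slow-frozen replicate 1 was apart from its group and above vitrified replicate 4. The difference was 0.37 ± 0.16 (unadjusted p = 0.041, adjusted p = 1.00, limma), while the second probe of the gene gave 0.06.

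DNAJC2, a J protein bound to the ribosome, is named after its values were seen because its groups did not overlap. It read 12.56, 12.38, 12.48 and 12.41 against 12.18, 11.57, 12.25 and 12.36 (0.36 ± 0.17, unadjusted p = 0.058, adjusted p = 1.00, limma). The gap between vitrified replicate 2 and slow-frozen replicate 4 was narrow, and slow-frozen replicate 2 was far below the rest. DNAJC17, linked to splicing, is named for the same reason: its probe EMBV3_32807 was 0.24 ± 0.13 higher (adjusted p = 1.00, limma), but it was dim, above the negative controls in only 2 slow-frozen pools, and the brightest of its 4 probes gave -0.06.

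The remaining 22 DNAJC genes, DNAJC2 and DNAJC17 included, had differences from -0.37 to 0.41, 11 on each side. The extremes were DNAJC5, the cysteine string protein of secretory vesicles (-0.37 ± 0.22), and DNAJC12, a co-chaperone of the aromatic amino acid hydroxylases (0.41 ± 0.19), with unadjusted p-values of 0.12 and 0.059 (limma). DNAJC19, the close relative of DNAJC15 at the mitochondrial import motor, differed by 0.21 ± 0.19 (unadjusted p = 0.29, limma). DNAJC5B and DNAJC5G were not tested.

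DNAJB11, which serves the HSP70 of the endoplasmic reticulum, had the lowest difference of any member when each gene was taken by its brightest probe. It read 12.29, 12.13, 12.68 and 12.75 in the vitrified and 13.31, 12.34, 12.78 and 12.98 in the slow-frozen pools. The highest pools were slow-frozen and the lowest vitrified, with overlap in between (-0.39 ± 0.21, unadjusted p = 0.086, adjusted p = 1.00, limma). Omitting slow-frozen replicate 1 gave -0.15 (unadjusted p = 0.33), and omitting replicate 2 of that group gave -0.54 (unadjusted p = 0.027, limma). DNAJB1, the heat-inducible partner of HSP70 in the cytosol, read 9.54, 9.52, 9.09 and 9.35 against 9.31, 9.28, 10.14 and 9.64. Slow-frozen replicate 3 was the highest pool, as for HSPA1A, and the difference was -0.22 ± 0.20 (adjusted p = 1.00, limma). Its other probes gave -0.31 and -0.09, and the latter was 0.87 lower in Cy5 than in Cy3 (-0.87, unadjusted p = 0.0025, limma).

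The other 8 DNAJB genes had differences from -0.12 to 0.24 with unadjusted p-values of 0.20 or above (limma), DNAJB6 being the highest, and DNAJB7 and DNAJB13 were not tested. In the DNAJA class, DNAJA4 read 7.84, 8.11, 8.97 and 8.23 against 8.45, 7.74, 8.21 and 7.58. Vitrified replicate 3 was the highest pool, and the groups overlapped (0.29 ± 0.26, adjusted p = 1.00, limma). It was 0.065 when vitrified replicate 3 was omitted, 0.088 when slow-frozen replicate 4 was, and was 0.52 on omission of slow-frozen replicate 1, at an unadjusted p of 0.056 (limma). DNAJA2 and the mitochondrial DNAJA3 were at -0.09 and -0.16, and the other probes of DNAJA3 gave -0.40 and 0.03.

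Members were also grouped by compartment in 2 short lists chosen by hand, which do not hold every member of either compartment. Of the 7 genes on the mitochondrial list, 5 were on the higher side in vitrified pools with a median of 0.11. Of the 7 tested on the list for the endoplasmic reticulum, 5 were on the lower side with a median of -0.04. Other choices of list were not tried. None of these 14 genes reached an unadjusted p of 0.05 by its brightest probe (limma). Of the 17 members with more than 1 probe tested, 10 had all probes on the same side. The dye had an unadjusted p under 0.05 for 6 of the 81 member probes, 5 of them lower in Cy5 (limma), against 7.27% of all probes.

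The genes around the chaperones gave few further differences, and 0 of 61 tested passed the adjustment (limma). An unadjusted p under 0.05 was reached by 4 of the 61 (limma), against 5.95% of all genes by their brightest probe. Heat shock factors and their inhibitor HSBP1 had a median difference of 0.03 over 4 genes. The smallest p was that of HSBP1, which read 12.26, 12.15, 12.74 and 12.37 against 12.57, 12.08, 12.52 and 11.79 (0.14 ± 0.21, unadjusted p = 0.50, limma). The groups overlapped, slow-frozen replicate 4 being the lowest pool. The 12 partners of HSP70, which include the BAG exchange factors, had a median of -0.07. Their smallest p was that of GRPEL2, a mitochondrial exchange factor, with 11.00, 11.16, 11.09 and 10.99 against 10.71, 11.02, 10.61 and 10.97 (0.23 ± 0.15, unadjusted p = 0.14, limma). Slow-frozen replicates 1 and 3 were the low pools.

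Among 15 partners of HSP90, 12 were on the higher side in vitrified pools and the median was 0.11, beside 6137 of all 11737 genes on the higher side. AHSA2 (0.0017), AHSA1 (0.0072) and TTC4 (0.012) were counted among the 12. FKBP5, an immunophilin of steroid receptor complexes, read 10.58, 10.24, 10.17 and 10.12 in the vitrified and 9.73, 9.57, 9.81 and 10.33 in the slow-frozen pools. Slow-frozen replicate 4 overlapped the vitrified pools and the other 3 were below them (0.42 ± 0.19, unadjusted p = 0.0498, adjusted p = 1.00, limma), and a second probe gave 0.15. The 14 subunits of the TRiC chaperonin and prefoldin, which fold actin and tubulin, had a median of 0.08. TCP1 had their smallest p, with 13.22, 13.16, 13.10 and 13.21 against 13.14, 13.06, 12.74 and 12.81 (0.24 ± 0.13, unadjusted p = 0.11, limma). Slow-frozen replicates 3 and 4 were low.

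Of 10 tested genes of mitochondrial protein quality control, 8 were on the higher side, CLPX among them at only 0.0008. Of all 11737 genes, 6137 were on that side. LONP1, the main protease of the matrix, read 8.89, 8.86, 9.09 and 9.53 against 8.86, 8.25, 8.63 and 8.79. All but slow-frozen replicate 1 were below the vitrified pools (0.46 ± 0.18, unadjusted p = 0.024, adjusted p = 0.95, limma).

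Other targets of the heat shock response went different ways. SERPINH1, the collagen chaperone of the endoplasmic reticulum, read 7.51, 7.85, 7.77 and 7.70 in the vitrified and 7.22, 7.22, 7.46 and 7.44 in the slow-frozen pools. The groups did not overlap, at a low level (0.37 ± 0.14, unadjusted p = 0.020, adjusted p = 0.95, limma). HMOX1, the inducible heme oxygenase, read 6.82, 7.74, 7.16 and 7.47 against 8.01, 7.98, 7.85 and 7.48. The probe was above the negative controls in 4 slow-frozen but only 2 vitrified pools, so it was tested through the group in which it was brighter. Vitrified replicate 1 was the lowest pool and 3 of the 4 slow-frozen pools were above all vitrified ones (-0.53 ± 0.21, unadjusted p = 0.027, adjusted p = 0.95, limma), and the difference was -0.31 without vitrified replicate 1 (unadjusted p = 0.096, limma). CRYAB, a small heat shock protein by another name, differed by -0.12 ± 0.18.

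The HSP70 and HSP90 of the endoplasmic reticulum were measured for contrast. HSPA5 read 12.87, 12.97, 13.03 and 13.55 against 13.44, 13.38, 13.15 and 14.38. Slow-frozen replicate 4 was the highest pool, and vitrified replicate 4 was above 3 of the slow-frozen pools (-0.49 ± 0.24, unadjusted p = 0.065, adjusted p = 1.00, limma). It was -0.73 when slow-frozen replicate 3 was omitted (unadjusted p = 0.0033) and -0.24 on omission of the highest pool (unadjusted p = 0.24, limma). HSP90B1 was at -0.45 ± 0.24, with -0.59 for its second probe, and HYOU1 at -0.03 ± 0.19.

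**Figure D5:**
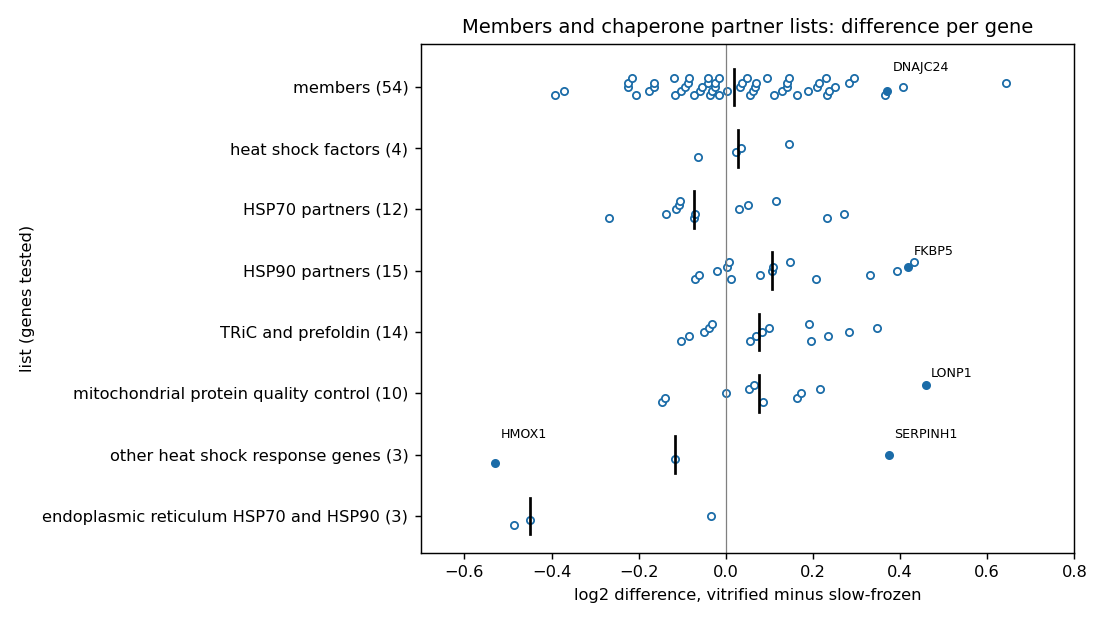
Log2 difference (vitrified minus slow-frozen, horizontal axis) of each gene tested, by its brightest probe, in the member set and the 7 lists of related genes (rows, number tested in brackets); filled points have an unadjusted p under 0.05 (limma) and black bars are medians. The medians lie between -0.12 and 0.11 except in the list of 3 endoplasmic reticulum genes (-0.45). The 5 filled genes are 1 of 54 members and 4 of 61 list genes, against 5.95% of all genes tested.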

How the data were processed

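Per the file headers, the deposited intensity of a spot is its median brightness in a dye channel, with the local background beside it and not subtracted. The authors had read the slides with Array-Pro, and each deposited file joins a vitrified and a slow-frozen channel. The deposited value table holds log2 ratios; they equal the Cy5 over Cy3 ratio obtained by plain background subtraction and loess (r at least 0.99999), and the table served as an alternative. According to the methods, the authors subtracted background, took log2 and applied lowess and quantile normalisation.

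Here normexp (offset 50) was used for the background, loess within files (control spots without weight) for the dyes, and quantile normalisation between the 8 channels. The 58 probes marked as ignored were left out. A probe was kept if 3 or more of the 4 pools of a group exceeded the 95th percentile of their 153 negative control spots. Vitrified and slow-frozen pools were tested in limma 3.58.1 (R 4.3.3; two-sided lmFit and eBayes fit with a dye term), adjusted by Benjamini-Hochberg over 30034 probes. The brightest kept probe by mean stood for a gene. The fit was tested on simulated data. The number of arrays limits the precision.

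Values per pool were given for members with an unadjusted p under 0.05, for the smallest p and the largest difference of each class, for members listed as stress-inducible, and for the smallest p and any p under 0.05 of each related list, unless stated. The members, the lists and this rule were chosen with earlier results of these data known. The 8 pools were treated as independent. The methods describe 1 tube per treatment and production cycle, and whether pools of the same number share a cycle is not given in the sources used here. Settings tried were other background corrections, scalings and filters, the fit without dye, blocks, the value table, probe means and omission of each pool.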

Additional observations from a re-analysis of the deposited data

Results flagged for a closer look

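Within each group of 4 pools the named genes were screened for a pool far from the other 3 by Dixon's ratio, over 56 groups of 28 probes, of which chance would flag about 1 in 20. It was exceeded in 2 groups, both by slow-frozen replicate 1. For DNAJC24 that pool read 9.46 (log2 intensity), while the other slow-frozen pools lay between 9.15 and 9.17. For HSPE1 it read 13.48, with the others between 13.00 and 13.04. Without it the differences were 0.43 and 0.36 (unadjusted p = 0.037 and 0.033, limma), beside 0.37 and 0.23 with all pools.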

How the results depend on the processing

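Of 526 values of the named genes and DNAJC15 probes under other settings, 514 kept their direction and their side of the adjusted threshold, and 12 changed direction. HSP90AA1 was at -0.091 with median scaling and at -0.071 with the value table, and HSPA1B at 0.021 with median scaling. With single pools left out, HSPA1A ranged from -0.47 to 0.13, HSPA1B from -0.39 to 0.30, HSPB1 from -0.61 to 0.082 and HSBP1 from -0.055 to 0.30. The cause was not tested. The count of 1 member gene with an unadjusted p under 0.05 (limma) was 3 with plain background subtraction, 3 with no background correction, 2 without loess, 2 without a filter, 0 with probes above the controls in all 8 pools, 2 without the dye term, 4 with the file as a random block, 2 with the value table and 0 to 5 with single pools left out. Counted over probes, a choice made after seeing the data, the 4 were 11 with the file as a block and 3 to 11 with single pools left out. Over all 30034 probes the count was 1445 in the main fit and 2713 with the file as a block (unadjusted p under 0.05, limma). It was 871 to 1784 with single pools left out. The median difference stayed between -0.02 and 0.05. The 1 probe of the array past the adjustment was lost (0) with no background correction, with median scaling, without loess, with probes above the controls in all 8 pools, with the replicate block and with the value table, and the count was 0 or 1 with single pools left out; where it was 0, between 871 and 1784 probes had an unadjusted p under 0.05 (limma).

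Replicate numbers were not shown to pair the pools: deviations of same-numbered pools correlated at -0.03 to 0.16 over all probes, and 2 of 4 numbers matched best. With the replicate block the counts were again 1 member gene and 4 probes, but the gene was DNAJC15 (unadjusted p = 0.015, against 0.054 without the block) in place of DNAJC24 (0.0503, against 0.041), and all 4 probes were of DNAJC15. HSPA5 went from 0.065 to 0.014 with the block (limma). With dim probes, signal over background limits what can be seen.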
